A study of Homo sapiens with 5 samples.

Results

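MYC encodes a transcription factor that binds DNA together with its partner MAX and is known for driving ribosome production, nucleotide synthesis and growth in many tumours. It lies on the long arm of chromosome 8 among long non-coding RNA genes, of which PVT1, the next gene on the same strand, is often gained in tumours together with MYC. CASC11 is read from the opposite strand across the start of MYC, CASC8, PCAT1 and CCAT1 are long non-coding RNAs of the stretch before MYC that carries many enhancers, and POU5F1B is a retrotransposed copy of the stem cell gene POU5F1.

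The genes described here are MYC, PVT1, CASC11, CASC8, PCAT1, CCAT1 and POU5F1B, which were chosen from their measured RNA levels and correlations in these same nuclei, so that their RNA levels are given as a description with no test. Of the 7 names, 6 had a row among the 36601 genes of the deposited matrices, and CCAT1 had none and is named only. Cells of the human lung adenocarcinoma lines H838, HCC827, A549, H1975 and H2228 were each grown on their own in RPMI medium with fetal calf serum, without any drug or genetic change named, and then mixed. Their nuclei were captured with the 10× Multiome protocol, which reads polyA RNA as unique molecular identifiers (UMIs) and open chromatin as ATAC counts under the same barcode. The droplets with barcoded beads (GEMs) were divided into an 80% and a 20% portion with 1 RNA and 1 ATAC library each. The portions are therefore 2 readings of the same mixture and not replicates. Nuclei within a library were not treated as replicates, except in the interval of a correlation used to compare settings.

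The 80% portion held 6557 nuclei with a median of 13306 UMIs and 8784 ATAC counts, and the 20% portion held 1286 nuclei with medians of 10540.5 and 9156.5. A set of 159 barcodes was called in both portions, and Scrublet called 385 and 80 nuclei doublets. Clustering of the RNA gave 6 clusters in the 80% portion, which are numbered by size and were not assigned to cell lines, because the line labels that were made from variants were not used here. The cluster sizes ran from 2491 nuclei in cluster 0 to 334 in cluster 5, and the leading genes were MALAT1, ALDH1A1, LDHB, HSP90AA1, PVT1 and EGFR in clusters 0 to 5. A grouping into 5 clusters, as many as there were lines, merged clusters 3 and 4. Each RNA cluster shared from 89.0% to 97.1% of its nuclei with a single ATAC cluster, called its matching cluster here. Each nucleus of the 20% portion was placed in the cluster of the 80% portion whose mean RNA profile correlated best with its own.

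On hg38, in the GENCODE v44 annotation of chromosome 8, MYC spans positions 127735434 to 127742951 on the plus strand and codes for a protein. PVT1, a long non-coding RNA gene of 393 kb, starts 59.1 kb further on the same strand and spans 127794526 to 128187101. CASC11 spans 127686343 to 127738987 on the minus strand, so that its 5′ end lies within MYC. CASC8 spans 127289808 to 127482139 on the minus strand, and PCAT1 spans 126556323 to 127419050 on the plus strand. POU5F1B, at 127322183 to 127420066 on the plus strand, overlaps both of them. The sources used here do not give whether introns and strand were used in the counting, so reads of overlapping members may not be separable, and levels are compared between clusters and not between genes.

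All 6 genes with a row were detected. In the 80% portion PVT1 had 55346 UMIs, found in 96.5% of nuclei, and ranked 198 among all genes by UMIs. MYC had 16319 UMIs in 66.2% of nuclei and ranked 1027. PCAT1 had 2934 UMIs in 23.6% of nuclei, CASC8 had 697 in 6.80% and CASC11 had 232 in 2.90%. POU5F1B had 10 UMIs in 10 nuclei, 0.152% of all, while its source gene POU5F1 had 135, and since their sequences are nearly identical its level is uncertain. After thinning to 5000 UMIs per nucleus (101 shallower nuclei left out), the shares with a UMI were 83.3% for PVT1, 40.6% for MYC, 11.3% for PCAT1, 3.08% for CASC8 and 1.01% for CASC11.

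MYC was highest in cluster 4 and lowest in cluster 2. Levels are given as CPM (the gene's count divided by all UMIs of the cluster and scaled to 1e6), with exact 95% Poisson intervals that cover counting error only. In the 80% portion MYC stood at 765 CPM (743 to 787) in cluster 4, 427 in cluster 5 and 299.9 in cluster 3, followed by 115 in cluster 1, 109 in cluster 0 and 34.1 in cluster 2. The level in cluster 4 was 1.79 times that of the next cluster (1.70 to 1.89), and the highest level was 22.5 times the lowest. Clusters 1 and 0 differed by a factor of 1.06, with an interval of 1.00 to 1.12. In the 20% portion MYC stood at 758 CPM in cluster 4, 345 in cluster 3 and 312 in cluster 5, and the last pair did not differ beyond counting error (ratio 1.10, 0.932 to 1.31). The order of clusters 3 and 5 was therefore not the same in the portions, whereas the highest and the lowest cluster were. A MYC UMI was found in 98.1% of the nuclei of cluster 4 and in 33.5% of cluster 2, the lowest share, at median depths of 14746 and 12672 UMIs. How much of the lowest share is free RNA was not tested.

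PVT1 followed the same order at the ends. It stood at 2649 CPM (2609 to 2689) in cluster 4, 796 in cluster 3, 644 in cluster 5, 538 in cluster 1, 365 in cluster 0 and 295 in cluster 2. Its level in cluster 4 was 3.33 times the next one in the 80% portion (3.23 to 3.42) and 3.17 times in the 20% portion, where it reached 3281 CPM against 1036 in cluster 3. All nuclei of cluster 4 had a PVT1 UMI, with a median of 33, a range from 6 to 116 between the 5th and the 95th percentile and a maximum of 290. The median was 10 in cluster 3 and between 3 and 8 in the others.

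CASC11 was low but shared the peak of its 2 neighbours. It stood at 17.9 CPM (14.7 to 21.5) in cluster 4, from 113 UMIs in 22.2% of nuclei, against 3.83 in cluster 5, 2.76 in cluster 3 and at most 1.21 in the other clusters. Its level in cluster 4 was 4.66 times the next one (2.85 to 8.03), and clusters 5 and 3 did not differ beyond counting error. In the 20% portion cluster 4 was again highest at 16.9 CPM (9.01 to 28.9).

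The genes of the stretch before MYC had another order, with cluster 5 on top, whose leading gene was the growth factor receptor gene EGFR. CASC8 stood at 80.4 CPM (72.7 to 88.7) in cluster 5 and between 2.14 and 6.95 elsewhere, 11.6 times above the next cluster. PCAT1 stood at 200.1 CPM (188 to 213) in cluster 5 and between 10.7 and 27.4 elsewhere, 7.30 times above the next. A CASC8 UMI was found in 53.6% of the nuclei of cluster 5 and in 2.75% of cluster 2, and a PCAT1 UMI in 78.7% and 13.4%, at median depths of 12064 and 12672 UMIs. The 20% portion gave 86.6 and 213 CPM in cluster 5. Of the 10 POU5F1B UMIs, 6 were in cluster 5, and its level of 1.21 CPM there was too low for any order to be read.

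**Figure D1:**
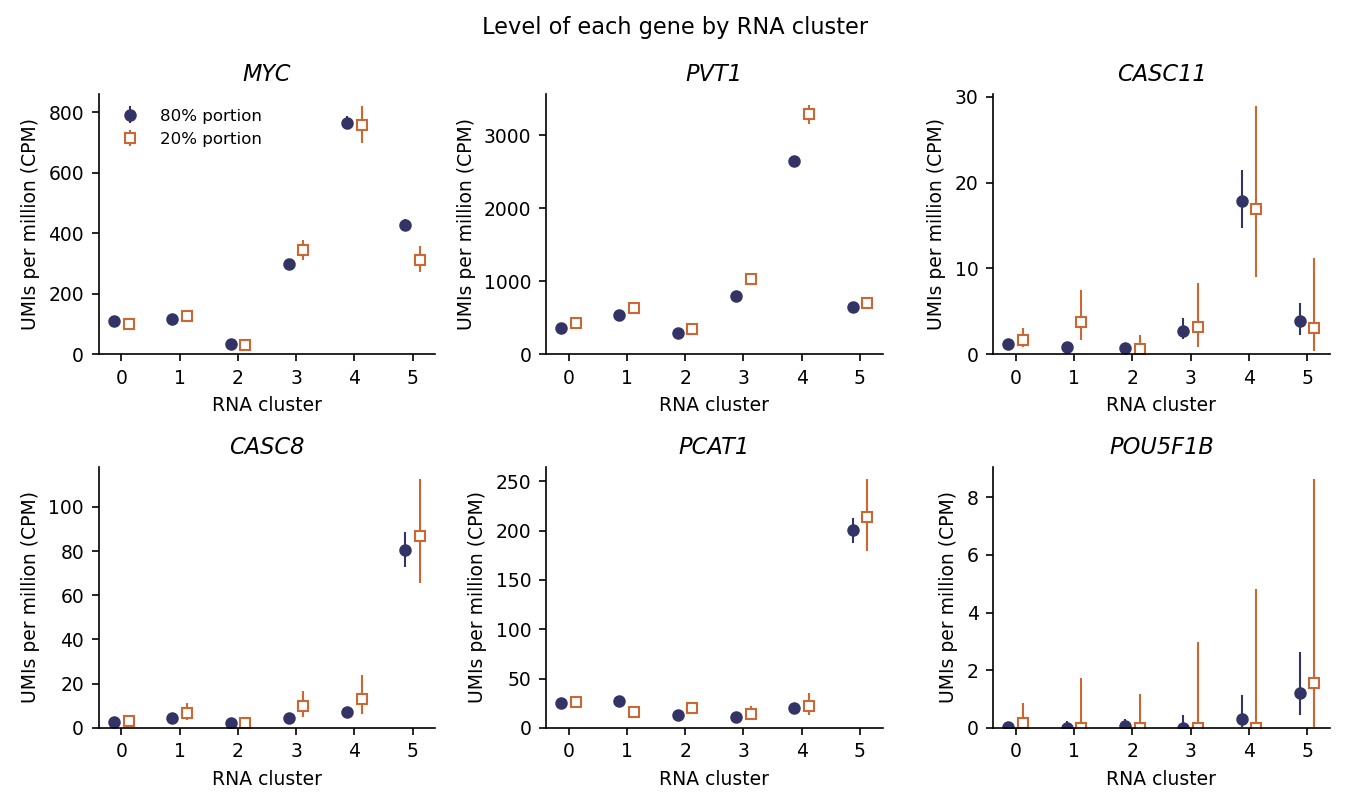
RNA level of each gene in CPM by RNA cluster, with 80% portion values as filled circles, 20% portion values as open squares and exact 95% Poisson intervals as bars. MYC, PVT1 and CASC11 peak in cluster 4 in both portions, at 765, 2649 and 17.9 CPM in the 80% portion, while CASC8 and PCAT1 peak in cluster 5.

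By a fixed rule of size, a gene with at least 10 CPM in a cluster was called where its highest cluster had at least 2 times the level of the second. In the 80% portion 4 of the 5 members with enough UMIs passed, PVT1, CASC11, CASC8 and PCAT1, beside 14.3% of all 12588 genes tested. MYC did not pass at 1.79. PVT1 and CASC11 passed with cluster 4 on top, as did 0.699% of all genes, and CASC8 and PCAT1 with cluster 5 on top, as did 1.97%. In the 20% portion all 5 passed, MYC with a ratio of 2.20, beside 14.7% of 13022 genes. The members were chosen from these levels, so nothing is read from their share. By the size of this ratio in the 80% portion, CASC8 ranked 224, PCAT1 405, CASC11 604, PVT1 867 and MYC 2291.

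The proportion of PVT1 to MYC changed from cluster to cluster. PVT1 had 3.46 UMIs for each MYC UMI in cluster 4 (3.35 to 3.58), 3.35 in cluster 0, 4.65 in cluster 1 and 2.66 in cluster 3. It was highest in cluster 2, with 8.67 (7.99 to 9.41), and lowest in cluster 5, with 1.51 (1.43 to 1.60). The 20% portion gave higher ratios in all 6 clusters, from 2.26 in cluster 5 to 10.6 in cluster 2, with 4.33 in cluster 4. Cluster 4, which had the highest level of both genes, was thus not at either end of this ratio.

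Of the 27 gene rows within 2 Mb of the start of MYC, 21 were not members, and 3 of these had no UMI in the 80% portion. Only 5 of the 21 reached 10 CPM in a cluster. LRATD2, a protein-coding gene 1177 kb before MYC, reached 173 CPM in cluster 5 and 48.6 in cluster 3. AC084116.1 and AC024382.1 reached 19.3 and 14.3 CPM in cluster 5. CCDC26, a non-coding RNA gene 1948 kb after MYC, stood at 43.9 CPM in cluster 5 and 28.7 in cluster 2. CASC19, another non-coding RNA gene before MYC, stood at 80.2 CPM in cluster 1 and 73.6 in cluster 5. None of the 5 was highest in cluster 4, where their levels lay between 0.316 and 17.5 CPM. CASC19, 508 kb before MYC, was the nearest of them, and the others lie between 888 and 1948 kb away. CASC19 stood at 7.75 CPM in cluster 4 and 4.23 in cluster 0, with a log2 ratio of 0.74 in cluster 4 to the median of the other clusters. In the 20% portion CASC19 stood at 3.91 CPM in cluster 4 and 3.44 in cluster 0. Over all 5, the median log2 ratio of cluster 4 to the median of the other clusters was -0.33. Further out, that median was -0.30 over 34 genes from 10 to 2 Mb before MYC and -0.70 over 15 genes from 2 to 10 Mb after it, against 0.05 over all genes tested. Chromosome 8 outside the window of 2 Mb on either side took 2.73% of the UMIs in cluster 4 and between 3.43% and 4.16% in the others. Among genes under 10 CPM, chosen after their values were seen, AC108925.1 and AC104370.1, which lie 64.4 and 157 kb before MYC, were also highest in cluster 4 of the 80% portion, at 3.48 and 1.90 CPM against at most 0.677 and 0.403 elsewhere. In cluster 4 of the 20% portion AC108925.1 stood at 3.91 CPM and AC104370.1 had no UMI. Of the 34 genes before MYC, 3 had a log2 ratio above 1 in cluster 4 (HAS2 at 2.22, DEPTOR at 2.07 and LINC01151 at 2.03), as did 1 of the 15 after it (LINC02055 at 1.04), or 8.82% and 6.67% beside 6.52% of all genes tested.

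The ATAC counts, which had no part in choosing the genes or in the RNA clusters, were taken from peaks within 2 Mb of the start of MYC. This window held 1.89% of all ATAC counts of cluster 4, from 316 peaks, against 0.585% in cluster 3, 0.410% in cluster 5, 0.199% in cluster 0, 0.187% in cluster 1 and 0.141% in cluster 2. On the log2 scale, the share in cluster 4 was 2.63 above the mean of the other clusters, and 2.80 above it in the 20% portion, where 193 peaks held 2.20% of the counts. Without peaks within 1 kb of an annotated gene start the value was 2.66. Exact intervals, taken with 2 counts as 1 fragment because 90.1% of the nonzero values were even, ran from 2.62 to 2.65 for the main value. The order of the clusters by this share (4, 3, 5, 0, 1, 2) had the same first and last place as the RNA levels of MYC and PVT1.

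In bins of 250 kb, the higher share of cluster 4 rose by steps before MYC and ended more sharply after it. Over the 6 bins from 0.75 Mb before to 0.75 Mb after the start of MYC it was between 2.15 and 15.2 times the median of the other clusters, with 14.4 times in the bin that begins at MYC and 15.2 times in the next. The bins on either side stood at 0.455 and 0.524 times. The first bin of this run, at 2.15 times, was not particular to cluster 4, as cluster 5 had 2.07 times there. In the 20% portion that bin stood at 2.53 times in cluster 4 and 2.58 in cluster 5. The next 2 bins of cluster 4 in the 80% portion stood at 8.52 and 9.78 times. In cluster 3 the ratio was between 2.03 and 5.27 times from 0.5 Mb before to 0.75 Mb after MYC, 1.22 times in the bin before and 0.394 times in the bin after. Both runs hold MYC, CASC11, CASC8 and all of PVT1, and leave out the start of PCAT1. Of the neighbours with at least 10 CPM in a cluster, only CASC19 starts within the run of cluster 4, in its first bin. Cluster 5 did not fall at the ends of the run of cluster 4. It had 1.49 to 2.81 times over the same bins and 4.96 times in the bin that holds the start of PCAT1. The amount of DNA and its accessibility cannot be told apart in these counts.

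**Figure D2:**
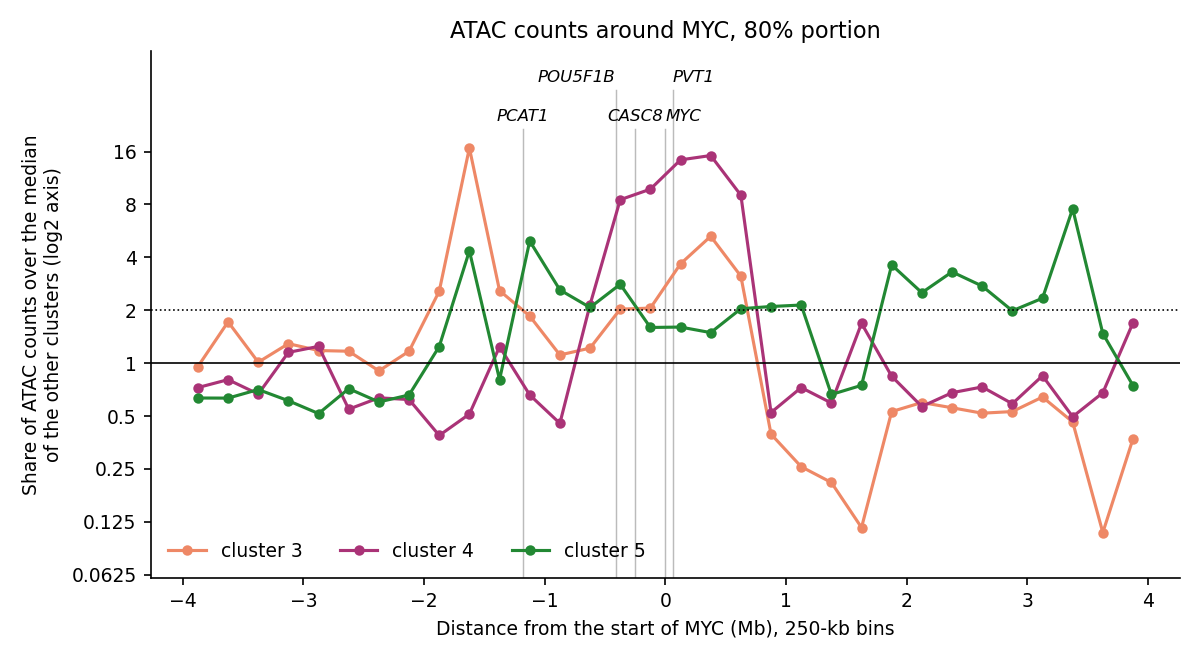
Share of ATAC counts in 250-kb bins over the median of the other clusters (log2 axis) against the distance from the start of MYC in Mb, for clusters 3, 4 and 5 of the 80% portion, with gene starts as grey lines, 1 as the solid line and 2 as the dotted line. Cluster 4 rises to between 2.15 and 15.2 from -0.75 to 0.75 Mb and stands at 0.455 and 0.524 in the adjoining bins, while the point of cluster 3 near -1.6 Mb rests on 3 peaks with 267 counts in all clusters.

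The starts of MYC and PVT1 were, like the window, highest in cluster 4, and that of PCAT1 was not. The 3 peaks within 1 kb of the start of MYC had 1018 ATAC CPM in cluster 4 (975 to 1062), 266 in cluster 3, 185 in cluster 5 and between 71.2 and 101 in the rest, and as a share of the window's counts they ranged from 3.77% to 5.41%, with 5.39% in cluster 4. The peak at the start of PVT1 had 376 CPM in cluster 4, 86.3 in cluster 3 and between 20.2 and 39.7 elsewhere, or 1.99% of the window's counts in cluster 4 against 0.969% to 1.65%. The peak at the start of PCAT1 was highest in cluster 5, with 58.6 CPM against 8.18 in cluster 4 and at most 18.9 elsewhere, and so followed its RNA at the top. No peak lay within 1 kb of the starts of CASC8 and POU5F1B.

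Within cluster 4 the nuclei differed widely in the window's share of ATAC counts, and PVT1 RNA moved with it nucleus by nucleus. Among the 371 nuclei of cluster 4 with at least 1000 ATAC counts the share was 0.469% at the 5th percentile, 1.73% at the median and 4.37% at the 95th, a span of 9.32 times. The span was 2.94 times in cluster 5, 3.71 in cluster 3, 3.95 in cluster 0 and 6.20 in cluster 1. It was widest in cluster 2, at 15.1 times around a median of 0.126%. There the window held only 13205 counts over 1452 nuclei, against 78495 over 378 nuclei in cluster 4. Among nuclei with at least 5000 ATAC counts the span was 7.08 times in cluster 2 and 9.22 in cluster 4. The span alone therefore does not set cluster 4 apart, and the part of counting error in it was not tested. The Spearman correlation of this share with the fraction of UMIs from PVT1 was 0.858 over the 371 nuclei and 0.800 over the 61 nuclei of the 20% portion. For MYC it was 0.480 and 0.391. In cluster 3 the values were 0.486 for PVT1 and 0.348 for MYC over 435 nuclei, and 0.434 and 0.451 over 86 nuclei of the 20% portion. In cluster 5 they were 0.233 and 0.113 over 325 nuclei, and in clusters 0 to 2 none exceeded 0.0901 in the 80% portion and 0.153 in the 20% portion. Cluster 5 of the 20% portion gave -0.21 for PVT1 and 0.177 for MYC over 52 nuclei. The value for PVT1 thus changed sign between the portions there, whereas that for MYC was small and positive in both. These points share a library, and each nucleus gives both values, so no p is attached.

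Doublets made up 11.9% of cluster 4, more than of any other cluster. Without them the correlation with PVT1 in cluster 4 was 0.844 and that with MYC 0.405. With the nuclei limited to those in the matching ATAC cluster, with no doublet call and with at least 5000 ATAC counts, it was 0.841 for PVT1 and 0.424 for MYC over 299 nuclei. The share still spanned 6.40 times in these nuclei, beside 7.05 times in cluster 2 under the same limits. With peaks in and around PVT1 left out, the remaining 249 peaks gave 0.798 for PVT1 in cluster 4. The shares before and after MYC, each read from its own peaks, had a correlation of 0.783 with each other in cluster 4, 0.295 in cluster 3 and at most 0.181 in the other clusters, and the 20% portion gave 0.747 in cluster 4 and 0.0922 in cluster 3.

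Other genes gave a scale for these values. For every gene with a UMI in at least 50% of the nuclei of a cluster, its RNA was correlated with the share of ATAC counts within 500 kb of its start in the same way. In cluster 4 the median over 4336 genes was 0.041 and the 95th percentile 0.153, PVT1 ranked 1 at 0.857, MYC ranked 2 at 0.476, and the highest of the others was 0.347. In cluster 3 PVT1 ranked 1 of 4714 genes at 0.488 and MYC ranked 5 at 0.337. In cluster 5 they ranked 37 and 211 of 3560, and EGFR ranked 1 at 0.550. The genes differ in their UMIs and in the ATAC counts around them, and PVT1 had a mean of 44.3 UMIs per nucleus in cluster 4. The part of count number in these ranks was not tested, and clusters 0 to 2 were not ranked.

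**Figure D3:**
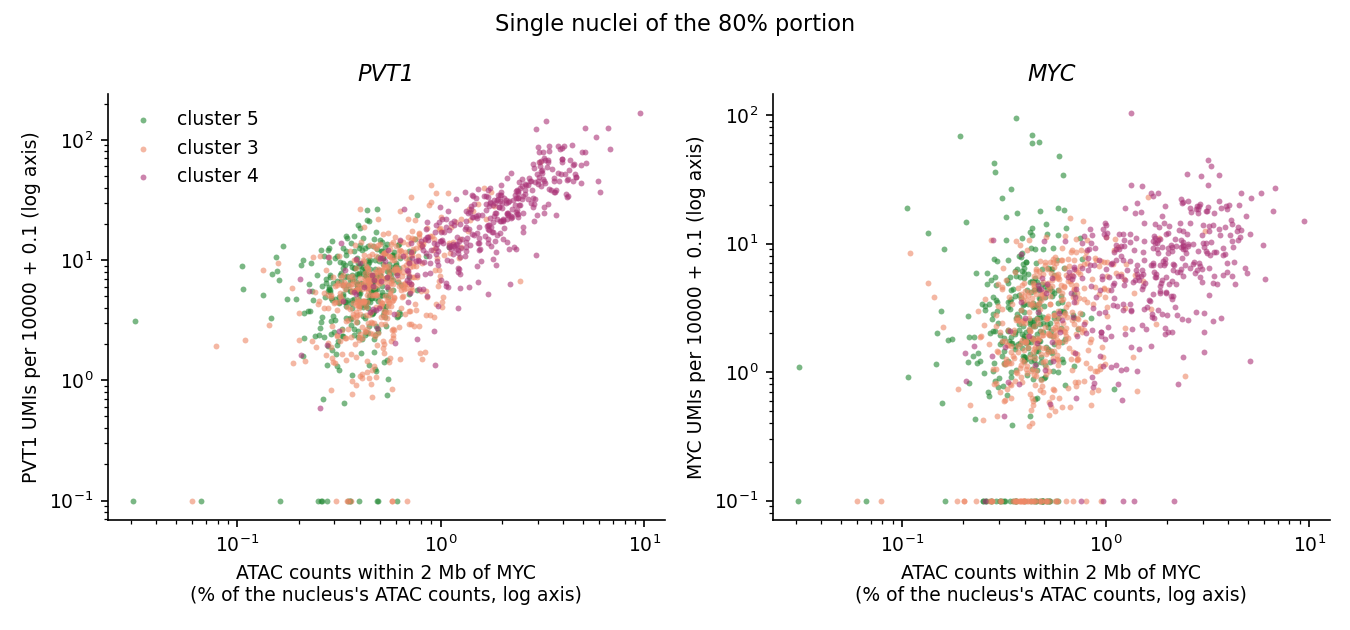
Each point is a nucleus of the 80% portion with at least 1000 ATAC counts, placed by the percent of its ATAC counts within 2 Mb of MYC and by its UMIs of PVT1 (left) or MYC (right) per 10000 plus 0.1, all on log axes. Nuclei of cluster 4 form a rising band for PVT1 (correlation 0.858, 371 nuclei) and a looser cloud for MYC (0.480), and points along the lower edge had no UMI of the gene.

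The nuclei of cluster 4 were placed in 3 groups of equal size by the window's ATAC share, a choice made after the correlations had been seen. The share was 0.780% in the lowest, 1.74% in the middle and 3.47% in the highest group. PVT1 stood at 1100.1, 2249.7 and 5150.3 CPM in these groups and was 4.68 times higher in the highest than in the lowest (4.48 to 4.89). MYC stood at 446, 740.5 and 1224 CPM, a ratio of 2.75 (2.55 to 2.96). CASC11 stood at 5.41, 19.4 and 32.9 CPM, a ratio of 6.08 (3.30 to 12.1). The number of PVT1 UMIs per MYC UMI was 2.47, 3.04 and 4.21 in the same order, so PVT1 differed more between the groups than MYC. CASC8 did not differ beyond counting error (ratio 1.69, 0.795 to 3.68). PCAT1, which peaked in cluster 5, had a ratio of 1.59 (1.07 to 2.38) but was lowest in the middle group. VIM, the intermediate filament gene that came next to PVT1 among the leading genes of cluster 4, had a ratio of 1.13 and MALAT1 of 0.989. Limited to nuclei with no doublet call and in the matching ATAC cluster, these ratios were 0.883 and 0.958. They were 0.871 and 0.988 in cluster 4 of the 20% portion, and 0.741 and 0.801 in cluster 3 of the 80% portion.

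Doublets were 29.0% of the lowest group and 0.813% of the highest. In nuclei with no doublet call and in the matching ATAC cluster, the ratios were 4.18 for PVT1, 2.02 for MYC, 4.18 for CASC11 and 3.14 for PCAT1 (1.72 to 6.06), and the share ran from 0.992% to 3.64%. PCAT1 was not lowest in the middle group of these nuclei, at 9.29, 18.6 and 29.2 CPM. In the 20% portion its middle group had 0 UMIs of PCAT1. The 20% portion gave 3.83 for PVT1 and 2.94 for MYC, and 5.80 for PCAT1 on few UMIs (1.62 to 31.5), from groups of 20 or 21 nuclei. In cluster 3, where the share ran from 0.351% to 0.864%, PVT1 had a ratio of 2.69 (2.51 to 2.88) and MYC of 2.51 (2.25 to 2.80). There the number of PVT1 UMIs per MYC UMI stayed between 2.47 and 2.75.

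MYC and PVT1 were also compared with each other in single nuclei, as the correlation of log-normalised UMIs. Over all 6557 nuclei Pearson's r was 0.463, and with each cluster's mean removed it was 0.193, against 0.176 in the 20% portion. By cluster it was 0.492 in cluster 4 (378 nuclei), 0.389 in cluster 3 and 0.341 in cluster 5, and 0.141, 0.064 and 0.022 in clusters 0, 1 and 2. The 20% portion gave 0.436, 0.361 and 0.223 in clusters 4, 3 and 5, where it held between 55 and 92 nuclei. Nuclei share a library and differ in depth, and thinning to 5000 UMIs brought the value within clusters to 0.120. The 3 clusters with the higher values were also those with the most MYC UMIs per nucleus, and the part of UMI number in this order was not tested.

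PVT1 was the gene most like MYC of the 11185 genes with a UMI in at least 10% of nuclei, and MYC ranked 2 for PVT1, behind TRIO. In the 20% portion PVT1 again ranked 1 for MYC and MYC ranked 6 for PVT1. An r of at least 0.1 with MYC was reached by 0.188% of these genes and an r of at least 0.1 with PVT1 by 0.894%, and since the pair was chosen from such correlations its place is a description. CASC11 reached 0.073 with MYC and 0.072 with PVT1, from 168 and 189 nuclei with UMIs of both, and rose to 0.180 and 0.245 within cluster 4. PCAT1 and MYC had -0.011. The genes before MYC were weakly related in single nuclei, with 0.057 for CASC8 and PCAT1.

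After PVT1, the genes most like MYC within clusters were CCN1, a secreted matrix protein gene (r 0.137), GADD45A (0.126), MIR222HG (0.124), UGCG (0.123), GADD45B (0.119), JUN (0.117), TGFB2 (0.115) and ERRFI1 (0.114). GADD45A and GADD45B are stress response genes, JUN is an AP-1 transcription factor gene, and ERRFI1 encodes an inhibitor of EGFR. In the 20% portion their values lay between 0.035 for TGFB2 and 0.127 for CCN1. The genes most unlike MYC were SYNE2, LINC01876 and MIR924HG, near -0.08. These are small correlations in sparse counts and are given for their order only.

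The genes most like PVT1 were TRIO, a guanine nucleotide exchange factor gene (r 0.215, and 0.248 in the 20% portion), followed by ASAP1 (0.169), GPHN (0.157), MPP6 (0.148), CMIP (0.146), GLIS3 (0.146), SRGAP1 (0.145) and RASAL2 (0.143). Of these only ASAP1 lies on chromosome 8. TMSB10, CFL1 and B2M, which encode a thymosin, cofilin and the light chain of class I antigen presentation, had the lowest values, near -0.13. The genes most like MYC and those most like PVT1 thus had no name in common among the first 8.

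Within single clusters MYC and PVT1 had other neighbours. The genes ranked there had a UMI in at least 25% of the nuclei, with the members left out, and were ranked after their values had been seen. In cluster 4 the genes most like PVT1 after MYC were NOP56 (r 0.361), GPHN (0.349), C1QBP (0.337), DDX21 (0.323), CD320 (0.318), CMSS1 (0.309), MAT2A (0.308) and RPS24 (0.299). NOP56 and DDX21 act in ribosome assembly and MAT2A makes the methyl donor S-adenosylmethionine. NOP56 also ranked first in cluster 4 of the 20% portion, at 0.546 over 62 nuclei. In cluster 3 DDX21 was first after MYC at 0.366, and PA2G4, WDR43 and HSPD1 were among the first 8. In cluster 5 KCNQ5, ASAP1, TRIO and WDR43 led at 0.527, 0.515, 0.476 and 0.454. NOP56 for PVT1 in cluster 4 and KLF6 for MYC in cluster 3 were the only genes that stood among the first 8 in the same cluster of both portions, and clusters 3 to 5 of the 20% portion are small.

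For MYC itself, the ribosomal protein gene RPS24 (r 0.275) and the helicase gene EIF4A1 (0.272) were among the first 8 in cluster 4. After PVT1 (0.389), cluster 3 was led by ERRFI1 (0.340), MIR222HG (0.332) and CCN1 (0.328). In cluster 5 the first places were held by TNFAIP3 (0.478), PMAIP1 (0.460), GADD45A (0.440), PPP1R15A (0.433) and, at place 8, ATF3 (0.380), genes known from NF-κB signalling, apoptosis and the stress response. The levels of MYC were also most uneven there, with 39.6% of the UMIs of the cluster in the 17 nuclei with the most, against 18.5% to 30.5% in the top 5% of the other clusters, and a maximum of 154 UMIs beside a median of 3. In the smaller portion it was 23.3% in cluster 5, from 3 nuclei, within the 21.8% to 35.8% of the other clusters.

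The list of MYC responsive genes held 48 genes that are known to follow MYC, mainly for ribosome assembly, nucleotide synthesis and metabolism. By level, 46 were tested and 1 was called, or 2.17% beside 14.3% of all genes, the cell cycle kinase gene CDK4, at 1526 CPM in cluster 5 and 8.65 times the next cluster. The next largest ratios were 1.75 for SLC19A1, the folate carrier gene, highest in cluster 4, and 1.66 for GRWD1, highest in cluster 2, where MYC was lowest. CDK4 had an r of -0.007 with MYC within clusters. In cluster 5 its RNA had a correlation of 0.365 with the ATAC share within 500 kb of its own start, at rank 7. The cause of its level was not tested. Cluster 4 was the highest for 8 of the 46, or 17.4%, beside 12.8% of all genes tested. Cluster 3 was the highest for 12 of the 46, beside 1957 of 12583 genes. Cluster 2, with the least MYC, was the highest for more list genes than cluster 4, among them HSPD1 and DDX18. Against the median of the other clusters, the list had a median log2 ratio of 0.15 in cluster 4 against 0.05 over all genes tested. Across nuclei within clusters, the list's median r with MYC was 0.026 against -0.001 over all genes, and WDR43, EIF4A1, RRP9 and ODC1 had the highest values, from 0.054 to 0.107.

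In single nuclei of clusters 3 and 4 the same list stood further from the other genes. In cluster 4, 39 of 45 list genes had a positive r with PVT1, with a median of 0.117, against 51.5% of 8005 genes and a median of 0.003. With MYC it was 37 of 45, with a median of 0.065, against 43.5% and -0.011. In cluster 3, 42 of 44 were positive with PVT1, median 0.123, against 57.8% of 8299 genes and 0.014. Such counts are not given here for the other clusters, and the list gene WDR43 had an r of 0.454 with PVT1 in cluster 5. By the window's ATAC share, 37 of the 46 list genes in cluster 4 were higher in the highest group than in the lowest, against 47.0% of 10770 genes, with a median log2 ratio of 0.23 against -0.03. RRP9, CDC25A, SLC19A1, PES1, MCM4 and NOP56 had the largest log2 ratios, from 0.61 to 0.71, and CDK4 the lowest, -0.52. Some of these rest on few UMIs, with 22 in the lowest and 28 in the highest group for CDC25A. SLC19A1 had 44 and 54 and RRP9 had 87 and 109, and no interval is given for these ratios. NOP56 stood at 335, 439 and 514 CPM in the lowest, middle and highest group, and NCL, the nucleolin gene, at 915, 1062 and 1276. The summed level of the list was 11455 and 13877 CPM at the ends, a ratio of 1.21, and 1.21 again in nuclei with no doublet call and in the matching ATAC cluster.

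In cluster 3, 40 of 46 list genes were higher, median 0.23, and the summed ratio was 1.17. In cluster 5, where the window's share varied least, it was 34 of 46 with a median of 0.12, and 28 of 46 without doublets and in the matching ATAC cluster. The 20% portion had 28 of 46 higher in cluster 4, beside 47.8% of all genes, with a median of 0.11 and a summed ratio of 1.06. List genes share nuclei and libraries and are not independent, and these counts are a description of the 2 libraries.

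**Figure D4:**
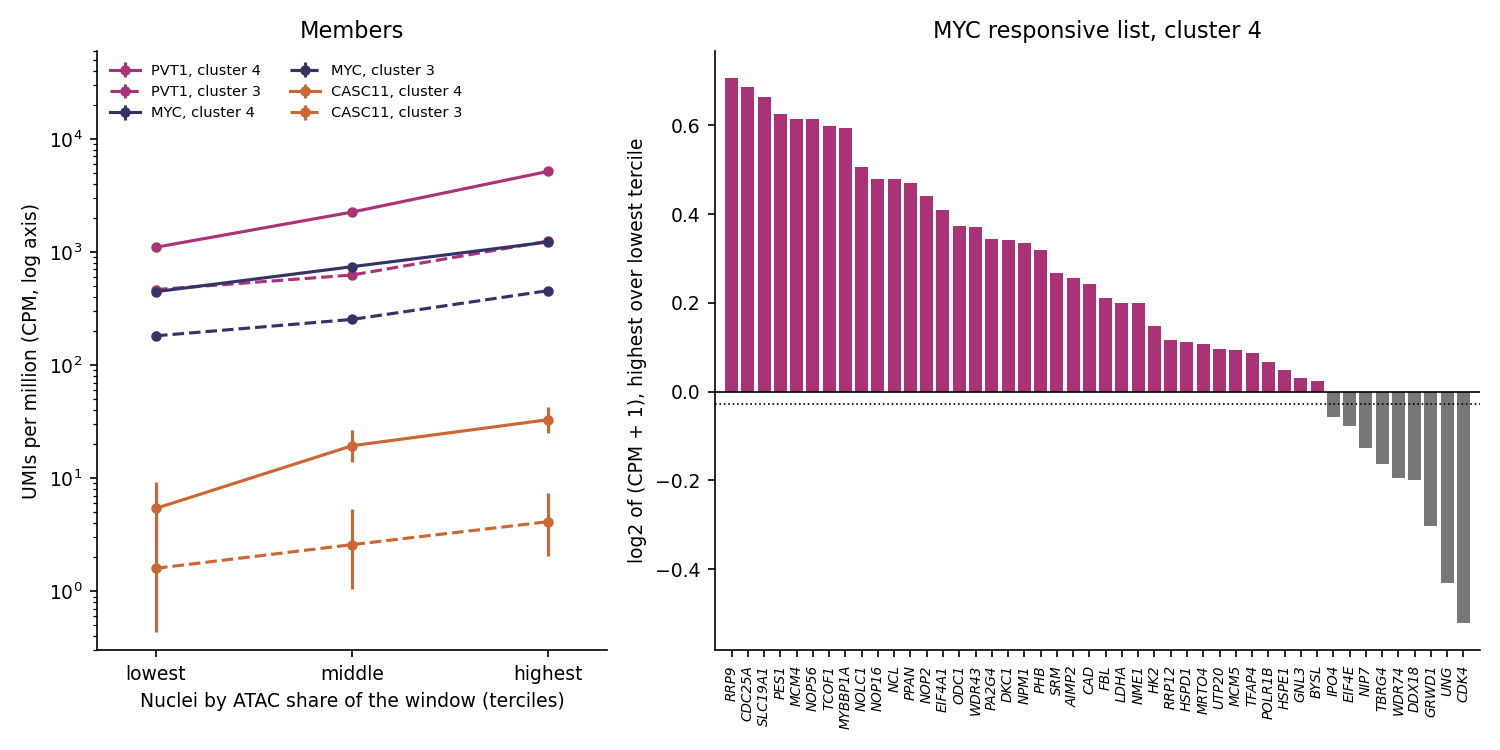
Left, levels of PVT1, MYC and CASC11 (CPM, log axis, 95% Poisson intervals) in nuclei of clusters 4 (solid) and 3 (dashed) of the 80% portion, placed in 3 groups by the ATAC share of the window around MYC; PVT1 goes from 1100.1 to 5150.3 CPM in cluster 4. Right, log2 ratio of CPM + 1 between the highest and the lowest group of cluster 4 for the 46 list genes tested, with the median of all genes as a dotted line at -0.03; 37 bars are above 0.

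None of the partners and regulators of MYC passed the rule of size, which 14.3% of all genes passed. Of the 12 genes of the MYC and MAX network 9 were tested, and the largest ratios of the highest to the next cluster were 1.41 for MLXIP, highest in cluster 3, and 1.38 for MXI1. MXI1, which competes with MYC for MAX, stood at 50.6 CPM in cluster 4 and between 14.1 and 36.8 elsewhere. MAX, the obligate partner, stood between 44.2 and 92.1 CPM, at 87.4 in cluster 4. The paralogs MYCN and MYCL had 5 and 50 UMIs in all. Of the 8 genes that control MYC turnover all were tested, and their largest ratios were 1.34 for AURKA, highest in cluster 2, and 1.34 for SKP2, highest in cluster 4 at 40.9 CPM. FBXW7, the ubiquitin ligase subunit that marks MYC for breakdown, stood between 114 and 163 CPM. All r of these genes with MYC were below 0.1, which 0.188% of all genes reached.

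Marker genes of other cell types and of lung epithelium also differed between the clusters. Of 9 markers of immune, endothelial and mesenchymal cells 4 were tested, and 3 of these stood more than 1 on the log2 scale above the median of the other clusters in cluster 4, beside 818 of 12583 genes. COL1A2, a fibrillar collagen gene, stood at 67.0 CPM in cluster 4 and at most 7.90 elsewhere, and was the only gene of the 4 to pass the rule of size. COL1A1 stood at 127 CPM in cluster 4 and 243 in cluster 0. PECAM1 stood at 14.1 CPM in cluster 4 and 8.80 in cluster 0. CD68, the remaining gene tested, stood at 34.9 CPM in cluster 4, 36.9 in cluster 3 and 43.7 in cluster 5. PTPRC, CD3E, MS4A1, VWF and DCN stayed below 1 CPM in every cluster, and the 4 tested genes were summed at 244, 263 and 228 CPM from the lowest to the highest group by window share in cluster 4, or 325, 264 and 212 CPM in nuclei with no doublet call and in the matching ATAC cluster. Of 9 lung epithelium markers 8 were tested, their median log2 ratio in cluster 4 was -0.29, and their ratios ran from -1.34 for CDH1 and NKX2-1 to 0.54 for KRT8. KRT8 and KRT18 stood at 1296 and 1724 CPM in cluster 4, above the median of the other clusters. EPCAM stood at 65.4 CPM there, against 716 and 749 in clusters 3 and 5 and 115, 42.4 and 23.4 in clusters 0, 1 and 2. CDH1 and NKX2-1 stood at 17.7 and 19.3 CPM in cluster 4 and at 4.70 and 2.40 in cluster 2. None of these genes was thus lowest in cluster 4. SFTPB was at most 0.378 CPM, so this surfactant marker was near 0 in all clusters. The part of these differences in the levels of MYC and PVT1 was not tested.

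The cell cycle lists bear on MYC because its RNA is short-lived and known to follow growth signals. In cluster 5 MYC stood at 189 CPM in the top 20% of nuclei by the share of UMIs on 15 G2/M genes and at 596 CPM in the lowest 50%, a ratio of 0.316 (0.273 to 0.365). On 15 S phase genes the ratio was 0.412. The 20% portion gave 0.736 and 0.877, with intervals that held 1, from 11 and 27 nuclei. Cluster 5 of the 80% portion held 838 of its 2118 MYC UMIs in 17 of its 334 nuclei. The intervals cover counting error only and not the group in which such nuclei fell. In cluster 0 the ratios were 0.826 for G2/M and 0.816 for S, and 0.637 and 0.736 in the 20% portion, all below 1 beyond counting error. In clusters 1, 2 and 3 the G2/M ratio was between 0.994 and 1.08, but 0.559 (0.369 to 0.827) in cluster 1 of the 20% portion. The S phase ratio of MYC in the 80% portion was 0.851 (0.744 to 0.972) in cluster 1 and 0.890 (0.793 to 0.997) in cluster 3, where the 20% portion gave 1.41 (1.11 to 1.78). MYC was thus lower on both lists in both portions in cluster 0, and the other clusters did not have the same direction beyond counting error in both.

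PVT1 differed by less than MYC in these groups of clusters 0 and 5 of the 80% portion, with G2/M ratios of 0.987 and 0.764. In cluster 5 of the 20% portion its S phase ratio was 1.40 (1.11 to 1.75). In cluster 3 the ratios of PVT1 were 0.971 for G2/M and 1.09 for S in the 80% portion. The 20% portion gave 0.415 and 2.07 there, from 18 and 46 nuclei. In cluster 4 PVT1 was higher in the G2/M group, at 3473.5 against 2319.6 CPM, and the 20% portion had the same direction with a ratio of 1.49. MYC there stood at 914 against 745 CPM, but had a ratio of 0.770 in the 20% portion, so its direction was not the same. Doublets were 1.32% of the G2/M group and 14.8% of the other in cluster 4. The nuclei of the G2/M group held more UMIs in 5 of the 6 clusters, and the part of depth was not tested.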

How the data were processed

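The authors deposited counts without normalization: whole-number UMI counts per gene and ATAC counts per peak for each portion, from Cell Ranger ARC (2.0.0, hg38) per the labels. Peaks were called separately in each portion. The sources used here do not give whether introns were counted or whether ATAC counts are fragments or ends. The matrix of both portions together and the long-read totals per barcode of the 20% portion were not used here.

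The members and lists were chosen with earlier results of these data known, and the choice of 6 clusters, the single-cluster rankings and the groups by ATAC share were made after values had been seen. UMIs were log-normalised to 10000, and 2000 variable genes, scaled to at most 10, gave 30 components in scanpy 1.11.5. Seurat 5.3.0 under R 4.3.3 built shared nearest neighbour graphs (20 neighbours) and Louvain clusters (seed 0) at the lowest resolution with at least 6 clusters of at least 1% of nuclei. ATAC clusters used 50 components without the first. Doublets were called with Scrublet and kept in the main values. The rule that placed the 20% nuclei put 97.6% of the 80% nuclei back where they came from. The genes named were the members, neighbours with at least 10 CPM, the 8 most and 3 least correlated genes, the leading gene of each cluster and list genes by ratio or correlation. Ratios use 3 UMIs as the floor. With 1 library per portion no test across libraries was possible. Intervals of counts and their ratios are exact at 95%. The interval of the correlation of MYC and PVT1, used only to compare settings, is a 95% Fisher interval that takes nuclei as independent. The ratio and correlation steps were tested on simulated data.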

Additional observations from a re-analysis of the deposited data

How the results depend on the processing

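No paired analysis was possible because each portion has 1 library of each kind. Of 72 values under alternative settings 34 stayed within the interval of the main value, 38 did not, and none reversed. For the correlation of MYC and PVT1 this interval (0.169 to 0.216) took the 6557 nuclei as independent, so it does not cover the spread between libraries. The intervals of the other results cover counting error only. Without nuclei called doublets, MYC stood at 870.1 CPM and PVT1 at 3026 CPM in cluster 4, with ratios to the next cluster of 1.93 and 3.77, the correlation of MYC and PVT1 within clusters was 0.169 and the log2 ATAC value of the window 2.83. With ATAC clusters these were 820.5 and 2817 CPM and ratios of 2.17 and 3.57, with an ATAC value of 2.74. The 20% portion gave 3281 CPM for PVT1, ratios of 2.20 and 3.17, 4.33 PVT1 UMIs per MYC UMI and an ATAC value of 2.80. Clusters made without genes of chromosome 8 gave a correlation of 0.219 and an ATAC value of 2.61, and another seed an ATAC value of 2.65. As a mean over nuclei, MYC and PVT1 stood at 836 and 2781 CPM, with a ratio of 3.57 for PVT1. The correlation was 0.120 after thinning to 5000 UMIs and 0.129 as a rank correlation. The ATAC value was 2.88 for 1 Mb on each side and 2.66 without peaks near gene starts. Of the settings chosen after seeing the data, 5 clusters, which merged clusters 3 and 4 by construction, gave 506 and 1616 CPM, ratios of 1.18 and 2.51, a correlation of 0.263, 3.20 PVT1 UMIs per MYC UMI and an ATAC value of 2.29. Nuclei in the matching ATAC cluster gave 836 and 2865 CPM, ratios of 2.08 and 3.61 and an ATAC value of 2.75. The ratio of MYC thus passed 2 with ATAC clusters, in matching nuclei and in the 20% portion only, and apart from the merged clusters the cause of these differences was not tested. The number of nuclei limited the 20% portion, where clusters 4 and 5 held 62 and 55 nuclei. Its median of UMIs was also lower, at 10540.5 against 13306, though that of ATAC counts was not. Low counts limited the members under 10 CPM.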
